A study of Homo sapiens with 12 samples.

Results

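The 39 genes described here serve the endoplasmic reticulum (ER) of human cells as KDEL receptors, chaperones, oxidative folding enzymes, degradation factors and stress response regulators. They were taken by name from a list drawn up with the changes in 2 knockdowns, and the difference between those changes, in view, so the values below describe these genes and the calls on them are no independent test. KDELR3 in particular was known to go opposite ways. Of the 39 genes, 36 had a probe set annotated to them alone, and all 36 passed the filter on low signal, among 18621 genes tested. KDELR2 had no probe set listed, and the probe sets listed for PDIA5 and SYVN1 carry another gene's symbol as well, so no value is given for these 3 genes.

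The cells were A549, an established human lung adenocarcinoma line, and 4 groups of 3 arrays each were compared. FAM60A knockdown cells received an siRNA against FAM60A and were set against cells with a non-targeting siRNA from the same experiment. SDS3 knockdown cells received an siRNA against SDS3 and were set against other cells with a non-targeting siRNA. Each siRNA was used at 50 nM, RNA was taken 3 days after transfection, and the experiments shared no control array. SINHCAF is the present name of FAM60A and SUDS3 that of SDS3. Both proteins belong to the SIN3 co-repressor, which carries histone deacetylases to chromatin, and the comparisons ask how transcript levels differ once either one is depleted. The treatment protocol identifies a single siRNA for FAM60A and does not identify the one for SDS3, whose dose and time are taken from that same protocol, so the effect of a target cannot be told apart from other effects of its siRNA. Triplicate wells are named but not separate cultures, so the errors and p-values cover only the variation among these wells, part or all of which may be technical.

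SINHCAF had a log2 signal of 9.30 ± 0.16 in FAM60A knockdown cells and 11.99 ± 0.019 in their controls (SD, n = 3 each), and SUDS3 had 8.47 ± 0.15 in SDS3 knockdown cells and 10.05 ± 0.046 in their controls. The target transcript was thus left at 15.5% and 33.4% of its control level. All 5 epithelial markers (EPCAM, KRT8, KRT18, KRT19 and CDH1) had a log2 signal of at least 6.91 on every array, while the 3 measured leukocyte markers lay between 4.16 and 8.67, the 4 endothelial ones between 4.23 and 8.69 and the 5 fibroblast ones between 5.97 and 8.19. The median probe set signal was 186.0 to 192.6 on the FAM60A arrays and 96.8 to 98.3 on the SDS3 arrays, and no level was set against one from the other experiment. These are bulk samples, in which fewer cells of a kind and less RNA per cell cannot be told apart.

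As background, proteins that enter the ER through the translocon fold there with the help of chaperones and of enzymes that form disulphide bonds, and those that fail to fold are drawn back to the cytosol for degradation. Many soluble ER proteins end in a KDEL-type signal, and the KDEL receptors return those that escape to the Golgi. When unfolded proteins build up, the sensors encoded by ERN1 (IRE1), ATF6 and EIF2AK3 (PERK) start the unfolded protein response: IRE1 splices XBP1 mRNA, ATF6 is cut to release a transcription factor, and PERK slows translation while ATF4 and then DDIT3 (CHOP) are made. The arrays measure total transcript and report neither XBP1 splicing nor protein.

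After FAM60A knockdown 8 of the 36 genes were called higher, 9 lower and 19 received no call, and after SDS3 knockdown 8 were called higher, 10 lower and 18 received none. The 9 lower became 5 without FAM60A knockdown replicate 2, and the 8 higher after SDS3 knockdown became 5 without SDS3 control replicate 2 or any of the SDS3 knockdown arrays. A call here means an adjusted p-value under 0.05 in limma's moderated test, Benjamini-Hochberg adjusted over all 18621 genes. Among all tested genes 36.8% were called after FAM60A knockdown (19.2% higher, 17.6% lower) and 34.6% after SDS3 knockdown (15.8% higher, 18.8% lower). The median log2 change of the 36 genes was -0.036 in FAM60A knockdown and -0.035 in SDS3 knockdown, beside -0.023 and 0.0064 over all tested genes. The arrays of the compared groups did not overlap for 24 genes in the FAM60A experiment (48.1% of all tested genes) and for 25 in the SDS3 experiment (47.6%). Only 3 of the calls after FAM60A knockdown (KDELR3, XBP1 and ASNS) and 4 of those after SDS3 knockdown (KDELR3, CANX, ASNS and SEC24D) reached a log2 change of 0.5 in size, which 9.8% and 9.51% of all tested genes did. Scaling each array to its 24 spiked-in Bacillus probe sets instead shifted every gene by -0.10 in FAM60A knockdown and by -0.32 in SDS3 knockdown, and the calls among the 36 genes became 1 higher and 7 lower in FAM60A knockdown and 0 higher and 19 lower in SDS3 knockdown, beside 1349 higher and 2251 lower and 497 higher and 9121 lower among all tested genes.

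**Figure D1:**
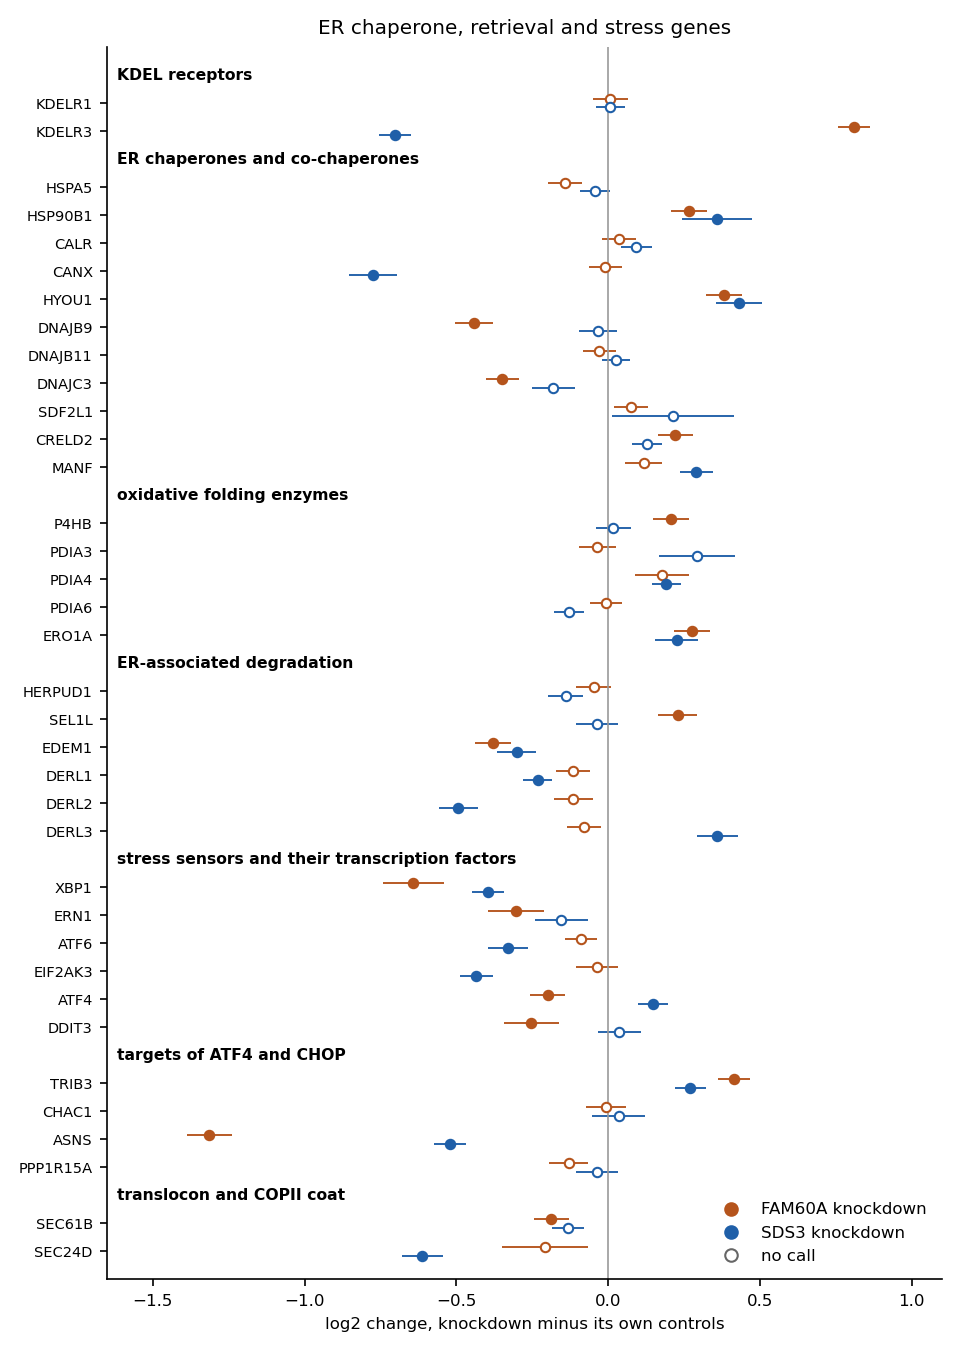
Log2 change (knockdown minus its own controls, x axis) of the 36 measured genes, arranged by role, in the FAM60A knockdown and the SDS3 knockdown; bars are limma's standard errors (3 arrays against 3) and open circles mark genes with no call. KDELR3 lies at 0.81 in FAM60A knockdown and at -0.70 in SDS3 knockdown, and ASNS at -1.31 and -0.52. Under spike-in scaling every point moves left, by 0.10 and 0.32. Of the filled SDS3 points above 0, MANF, PDIA4, ERO1A, ATF4 and TRIB3 then lie below 0, as do all the open ones.

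The regulators of this pathway act through short elements near gene starts, and these were searched in the 300 bases around the start of each gene (250 before it and 50 after it, RefSeq, GRCh38.p14), for which 34 of the 39 genes had an entry. The ER stress element ERSE was searched as CCAAT and CCACG with 9 bases between them, its second form ERSE-II as ATTGG and CCACG with 1 base between them, the unfolded protein response element UPRE as TGACGTGG and the CARE element read by ATF4 dimers as TGATGNAA, each on both strands. ERSE stood in 6 of the 34 windows (HSPA5, HSP90B1, CALR, CANX, CRELD2 and XBP1; 17.6%, beside 0.0806% of 27305 windows of all genes), ERSE-II in 3 (HYOU1, SDF2L1 and HERPUD1; 8.82% beside 0.0549%), UPRE in 2 (KDELR3 and HYOU1; 5.88% beside 0.795%) and CARE in 3 (HERPUD1, CHAC1 and ASNS; 8.82% beside 3.67%). ERSE and ERSE-II were first described in promoters of genes of this very list, so these shares restate how they were defined. The windows below are those of some genes with a match that the results turn on. They are the receptor with opposite changes (KDELR3, chr22:38467846-38468145, plus strand), the chaperone lower in SDS3 knockdown alone by call (CANX, chr5:179698679-179698978, plus) and the chaperone most often used to follow the response (HSPA5, chr9:125241294-125241593, minus). The others are the transcription factor and the amino acid synthetase lower in both (XBP1, chr22:28800520-28800819, minus, and ASNS, chr7:97872359-97872658, minus), and a chaperone higher in both (HYOU1, chr11:119057156-119057455, minus). Each is printed 5′ to 3′ on the gene's strand, with the fixed letters of a matched element in capitals.
KDELR3: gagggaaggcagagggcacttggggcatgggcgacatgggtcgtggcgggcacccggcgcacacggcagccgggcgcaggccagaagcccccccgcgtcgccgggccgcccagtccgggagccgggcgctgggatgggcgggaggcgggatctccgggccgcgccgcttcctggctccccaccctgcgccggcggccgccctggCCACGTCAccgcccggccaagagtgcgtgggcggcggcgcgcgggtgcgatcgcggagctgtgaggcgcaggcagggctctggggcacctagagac
CANX: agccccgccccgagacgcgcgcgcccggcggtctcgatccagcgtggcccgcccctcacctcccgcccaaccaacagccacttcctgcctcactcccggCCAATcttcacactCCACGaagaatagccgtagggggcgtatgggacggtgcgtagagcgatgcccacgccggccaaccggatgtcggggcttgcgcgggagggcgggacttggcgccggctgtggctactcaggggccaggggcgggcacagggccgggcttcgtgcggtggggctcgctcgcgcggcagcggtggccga
HSPA5: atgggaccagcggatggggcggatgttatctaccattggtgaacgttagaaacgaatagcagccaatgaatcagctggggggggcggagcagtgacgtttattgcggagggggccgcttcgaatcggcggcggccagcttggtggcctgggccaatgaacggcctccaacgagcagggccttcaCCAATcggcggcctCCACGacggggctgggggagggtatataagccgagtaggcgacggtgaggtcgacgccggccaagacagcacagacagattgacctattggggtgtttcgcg
XBP1: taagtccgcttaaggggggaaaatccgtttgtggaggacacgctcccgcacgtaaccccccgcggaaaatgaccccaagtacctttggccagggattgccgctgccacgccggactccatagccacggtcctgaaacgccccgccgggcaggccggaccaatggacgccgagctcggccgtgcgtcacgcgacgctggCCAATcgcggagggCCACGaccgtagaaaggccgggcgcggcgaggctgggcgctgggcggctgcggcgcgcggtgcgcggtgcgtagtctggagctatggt
HYOU1: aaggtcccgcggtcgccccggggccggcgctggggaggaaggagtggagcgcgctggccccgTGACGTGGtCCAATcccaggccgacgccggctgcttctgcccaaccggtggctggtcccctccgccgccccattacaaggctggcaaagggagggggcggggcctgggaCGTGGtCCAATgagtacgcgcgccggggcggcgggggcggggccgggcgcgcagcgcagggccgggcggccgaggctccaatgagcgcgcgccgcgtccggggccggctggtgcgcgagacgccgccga
ASNS: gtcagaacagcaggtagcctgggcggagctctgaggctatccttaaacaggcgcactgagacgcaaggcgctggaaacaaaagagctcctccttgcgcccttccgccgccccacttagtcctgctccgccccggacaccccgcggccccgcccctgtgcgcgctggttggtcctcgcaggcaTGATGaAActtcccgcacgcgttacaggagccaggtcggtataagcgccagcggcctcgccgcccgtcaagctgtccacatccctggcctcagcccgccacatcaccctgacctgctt
The KDELR3 window holds UPRE on the opposite strand at bases -46 to -39 from the start, CANX holds ERSE at -151 to -133, HSPA5 at -66 to -48 and XBP1 at -52 to -34, and ASNS holds CARE at -68 to -61. HYOU1 holds ERSE-II on the opposite strand at -185 to -175 and again at -79 to -69, and its UPRE at -188 to -181 shares 5 bases with the first of these. HSP90B1, also a chaperone called higher in both, is not printed. It holds ERSE at -194 to -176 and, on the opposite strand, at -89 to -71. The 9 genes with ERSE or ERSE-II took different directions: 3 were called higher, 1 lower and 5 received no call after FAM60A knockdown, and 2 were called higher, 2 lower and 5 received none after SDS3 knockdown. The 20 tested genes with a window and no match had 4 higher and 7 lower after FAM60A knockdown and 5 higher and 4 lower after SDS3 knockdown. A match describes letters in the window and is not a measured binding site.

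KDELR3 changed in opposite directions in the knockdowns, and KDELR1 received no call in either. KDELR3 had log2 signals of 11.35, 11.34 and 11.30 in FAM60A knockdown cells, against 10.54, 10.54 and 10.49 in their controls. In the SDS3 experiment it had 9.71, 9.66 and 9.65 in knockdown cells, against 10.43, 10.30 and 10.40 in controls. The groups did not overlap in either experiment, and the knockdown arrays lay above all controls in the first and below all controls in the second. The log2 change was 0.81 (SE 0.053; 1.75-fold) after FAM60A knockdown and -0.70 (SE 0.054; 61.5% of control) after SDS3 knockdown, a difference of -1.51 (SE 0.071) between the responses. Opposite calls occurred in 2.59% of all tested genes. KDELR1, the broadly expressed receptor of the same family, had 13.60, 13.62 and 13.67 in FAM60A knockdown cells against 13.59, 13.58 and 13.69 in controls, and 12.83, 12.83 and 12.82 in SDS3 knockdown cells against 12.84, 12.80 and 12.81 in controls. Its groups overlapped in both experiments, with log2 changes of 0.0071 (SE 0.057) and 0.0069 (SE 0.047).

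The other KDELR3 probe sets bore on this in part. All 3 were called higher after FAM60A knockdown, with log2 changes of 0.81, 0.92 and 0.70. After SDS3 knockdown the 2 brighter ones were called lower, at -0.70 and -1.22, while the dimmest had a change of -0.018 and no call. Under spike-in scaling the brightest set had 0.71 in FAM60A knockdown and -1.03 in SDS3 knockdown. Its calls in both knockdowns and in the difference were kept under all alternatives run.

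**Figure D2:**
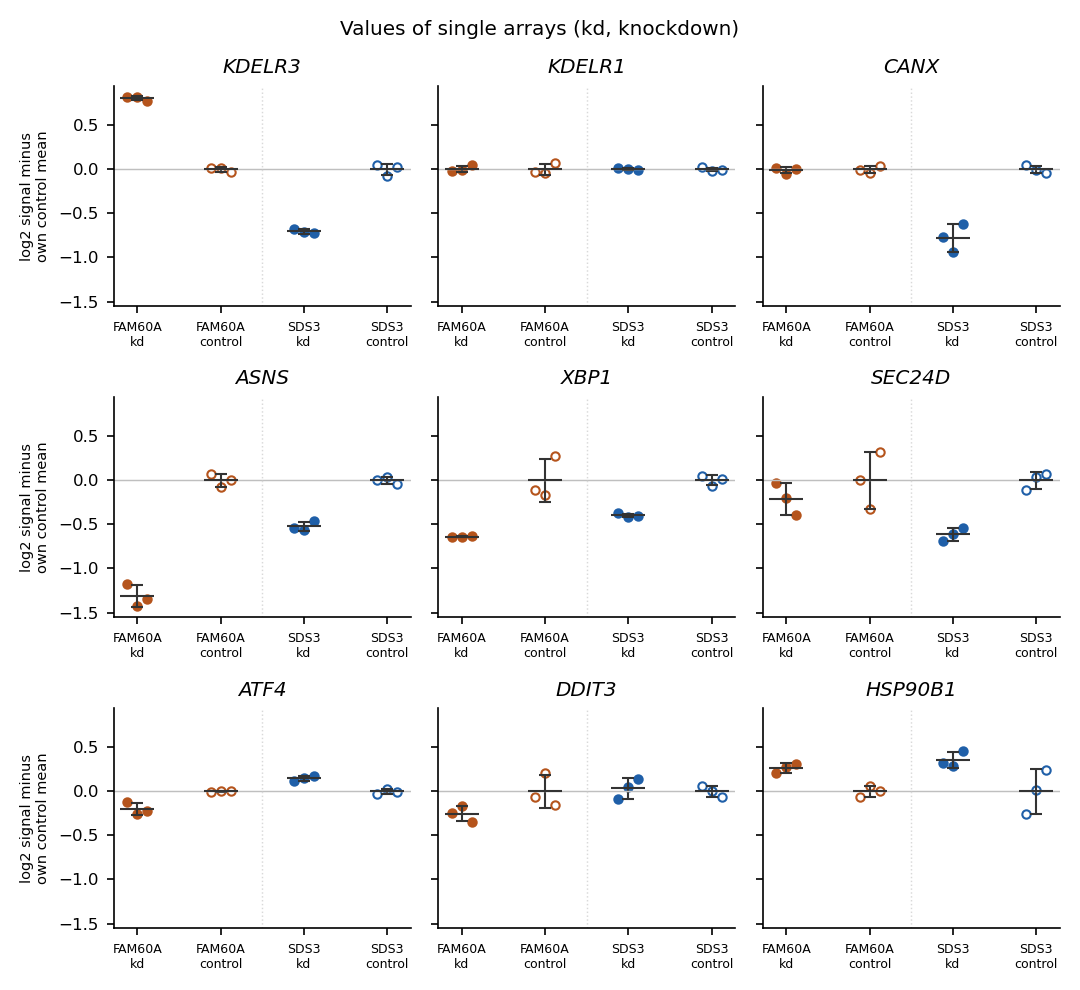
Log2 signal of each array minus the mean of its own experiment's controls (y axis) for 9 genes, with the knockdown left of its controls for FAM60A and then SDS3; points are arrays and bars the group mean and SD (n = 3). KDELR3 arrays lie at 0.78 to 0.83 in FAM60A knockdown and at -0.72 to -0.67 in SDS3 knockdown, while KDELR1 arrays stay within 0.072 of 0 in all groups as normalized here.

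Among 11 ER chaperones and co-chaperones, 3 rose and 2 fell after FAM60A knockdown, and 3 rose and 1 fell after SDS3 knockdown. CANX, the membrane lectin chaperone calnexin that holds glycoproteins during folding, gave the largest change of the group. It had log2 signals of 12.83, 12.67 and 12.98 in SDS3 knockdown cells against 13.65, 13.59 and 13.56 in controls, with every knockdown array below every control. In FAM60A knockdown cells it had 14.14, 14.08 and 14.13 against 14.12, 14.09 and 14.17 in controls, and these groups overlapped. CANX fell by 0.77 after SDS3 knockdown (SE 0.079; 58.4% of control) and had a log2 change of -0.010 (SE 0.055) after FAM60A knockdown, with a difference between the responses of -0.76 (SE 0.097). Its soluble partner CALR, calreticulin, received no call in either, with log2 changes of 0.037 (SE 0.056) in FAM60A knockdown and 0.093 (SE 0.051) in SDS3 knockdown. Of the 5 CANX probe sets, 4 were called lower after SDS3 knockdown, with changes from -1.05 to -0.54, and none was called after FAM60A knockdown.

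HYOU1, an HSP70-type chaperone of the ER, rose by 0.38 (SE 0.060) in FAM60A knockdown and by 0.43 (SE 0.076) in SDS3 knockdown. Under spike-in scaling both HYOU1 calls were lost, at 0.28 and 0.11. HSP90B1, the ER member of the HSP90 family (GRP94), had 10.45, 10.52 and 10.56 in FAM60A knockdown cells against 10.18, 10.31 and 10.24 in controls, and 9.02, 9.001 and 9.17 in SDS3 knockdown cells against 8.45, 8.72 and 8.95 in controls. Knockdown arrays were above all controls in both experiments, but the SDS3 controls spanned more, 8.45 to 8.95, than the change itself. The HSP90B1 change was 0.27 (SE 0.059) after FAM60A knockdown and 0.36 (SE 0.12) after SDS3 knockdown, where the limma adjusted p of 0.0418 lay just inside the threshold, and that call was lost when any of 5 of the 6 arrays was left out (changes of 0.23 to 0.39). Its probe set is of a shared-sequence type that can match related transcripts. MANF, a secreted neurotrophic factor that also binds HSPA5, rose by 0.29 (SE 0.054) after SDS3 knockdown, a value that became -0.033 under spike-in scaling, and had 0.12 (SE 0.061) after FAM60A knockdown with no call. CRELD2, an ER-resident protein induced by ER stress, rose by 0.22 (SE 0.058) after FAM60A knockdown and had 0.13 (SE 0.050) after SDS3 knockdown with no call. These rises were small beside the falls of KDELR3 and CANX in SDS3 knockdown.

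DNAJB9 (ERdj4) and DNAJC3 (p58IPK), both HSPA5 co-chaperones, fell after FAM60A knockdown, with log2 changes of -0.44 (SE 0.063) and -0.35 (SE 0.054). After SDS3 knockdown DNAJB9 had a log2 change of -0.033 (SE 0.064) and DNAJC3 of -0.18 (SE 0.071), neither called. The other 3 DNAJC3 probe sets, all dimmer, had -0.082, -0.087 and -0.052 after FAM60A knockdown with no call, and with the mean of its sets DNAJC3 had -0.14 and no call. After SDS3 knockdown a dimmer, shared-sequence DNAJC3 set was called lower, at -0.33, while the mean of the sets had -0.19 and no call. All 3 DNAJB9 probe sets were called lower after FAM60A knockdown (-0.44, -0.52 and -0.68) and none after SDS3 knockdown. HSPA5 (BiP), the central ER chaperone, had 13.67, 13.69 and 13.63 in FAM60A knockdown cells against 13.83, 13.74 and 13.84 in controls, below all of them, and 13.07, 13.07 and 13.09 in SDS3 knockdown cells against 13.07, 13.13 and 13.15 in controls. Its change of -0.14 (SE 0.056) after FAM60A knockdown lay just outside the threshold (limma adjusted p = 0.0707), and it was -0.043 (SE 0.049) after SDS3 knockdown. A dimmer HSPA5 probe set was called higher in both, at 0.50 and 0.46, as was the mean of both sets (0.18 and 0.21). The sign and the call for HSPA5 thus depend on the probe set. DNAJB11 (ERdj3) and SDF2L1, which work in a complex, received no call, with changes of -0.029 and 0.076 after FAM60A knockdown and 0.026 and 0.21 after SDS3 knockdown; SDF2L1 had an SE of 0.20 in SDS3 knockdown.

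Of the 5 measured oxidative folding enzymes, 2 rose and none fell in each knockdown, with the SDS3 direction turning under spike-in scaling. ERO1A, the oxidase that recharges protein disulphide isomerases, rose by 0.28 (SE 0.060) after FAM60A knockdown and by 0.23 (SE 0.071) after SDS3 knockdown, where it had -0.097 under spike-in scaling. The limma adjusted p of its SDS3 call, 0.0366, lay near the threshold, and the call was lost without any of 4 of the 6 arrays (changes of 0.18 to 0.23). Another ERO1A probe set was called lower in both knockdowns, at -0.31 each, against the direction of the brightest. P4HB, the first member of the disulphide isomerase family, rose by 0.21 (SE 0.059) after FAM60A knockdown, a call lost without any of 3 arrays (changes of 0.19), and had 0.017 (SE 0.058) after SDS3 knockdown. PDIA4 rose by 0.19 (SE 0.048) after SDS3 knockdown on a shared-sequence probe set, a call lost without SDS3 knockdown replicate 2 (0.17). Under spike-in scaling it had -0.13. Its other set, without shared sequence, had 0.0066 with no call after SDS3 knockdown, and the mean of both sets 0.099 with no call. After FAM60A knockdown PDIA4 had 0.18 (SE 0.090) with no call on its brightest set. PDIA3, the isomerase that works with calnexin and calreticulin, had changes of -0.036 (SE 0.062) in FAM60A knockdown and 0.29 (SE 0.12) in SDS3 knockdown with no call on its brightest probe set. Both other PDIA3 sets were called higher after SDS3 knockdown, at 0.36 and 0.54, as was the mean of the sets (0.40). PDIA6 had 13.32, 13.32 and 13.35 in SDS3 knockdown cells against 13.49, 13.43 and 13.46 in controls, without overlap, and its change of -0.13 (SE 0.048) lay just outside the threshold (limma adjusted p = 0.0702); its change was -0.0065 (SE 0.053) after FAM60A knockdown.

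For ER-associated degradation, 1 of 6 measured genes rose and 1 fell after FAM60A knockdown, and 1 rose and 3 fell after SDS3 knockdown. EDEM1, a lectin that passes misfolded glycoproteins on for degradation, fell by 0.38 (SE 0.058) after FAM60A knockdown and fell by 0.30 (SE 0.064) after SDS3 knockdown. The derlins, membrane proteins of the export channel, changed unevenly. DERL2 fell by 0.49 (SE 0.065) after SDS3 knockdown and had -0.11 (SE 0.065) after FAM60A knockdown, without a call. DERL3 rose by 0.36 (SE 0.068) after SDS3 knockdown on its brightest probe set, a shared-sequence one, while the other 2 had 0.040 and -0.084 with no call, and it had -0.080 (SE 0.055) after FAM60A knockdown. DERL1 fell by 0.23 (SE 0.049) after SDS3 knockdown and had -0.12 (SE 0.055) after FAM60A knockdown on its brightest set, which also carries a shared-sequence name, whereas a set specific to it had 0.098 in SDS3 knockdown and a called change of -0.33 in FAM60A knockdown. SEL1L, the adaptor of the SYVN1 ligase, rose by 0.23 (SE 0.065) after FAM60A knockdown, and all 4 of its probe sets were called higher there (0.23 to 0.56); the call on the brightest was lost without FAM60A control replicate 3 or FAM60A knockdown replicate 1 (0.18 to 0.20). After SDS3 knockdown SEL1L had -0.037 (SE 0.068). HERPUD1, which helps assemble the degradation complex, had no call on its brightest set, with -0.048 after FAM60A knockdown and -0.14 after SDS3 knockdown. A dimmer set without shared sequence was called lower after SDS3 knockdown, at -0.19, as was the mean of both sets (-0.16).

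**Figure D3:**
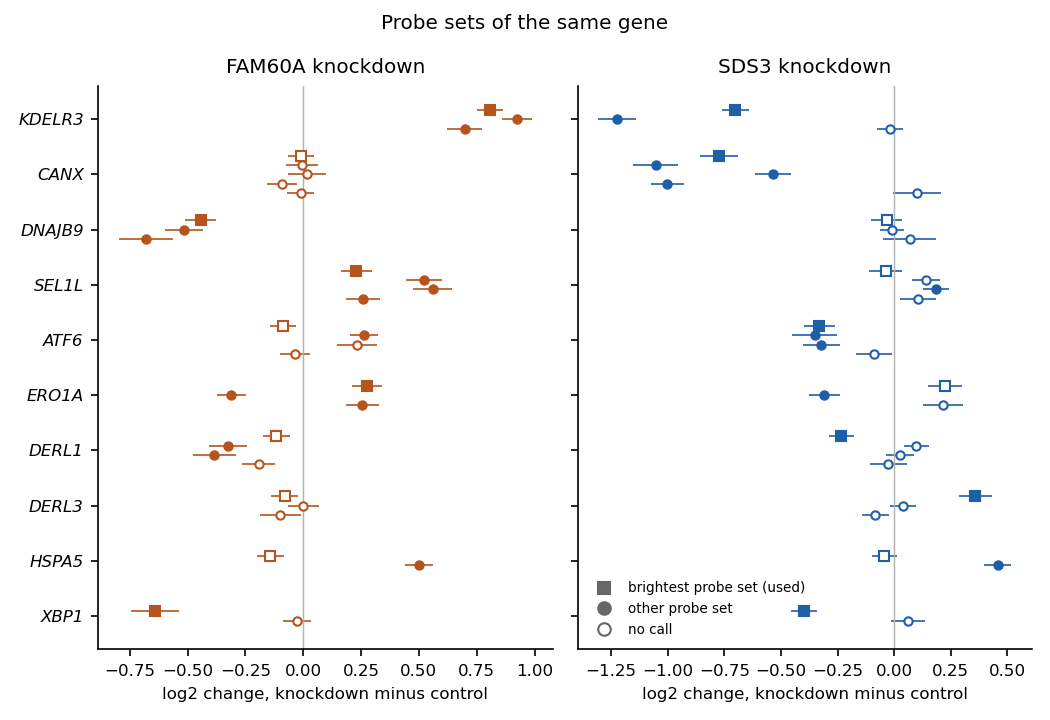
Log2 change (knockdown minus control, x axis) of every probe set passing the filter for 10 genes, from a fit of all probe sets, with FAM60A knockdown on the left and SDS3 knockdown on the right; squares are the brightest set, circles the others, open symbols have no call and bars are standard errors. CANX has 4 of 5 sets called lower in SDS3 knockdown and DNAJB9 all 3 called lower in FAM60A knockdown, while ERO1A has a set at -0.31 in both and HSPA5 a set at 0.50 and 0.46, opposite in sign to the brightest.

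Among the 6 stress sensors and their transcription factors, none rose and 4 fell after FAM60A knockdown, and 1 rose and 3 fell after SDS3 knockdown. XBP1, whose spliced mRNA encodes the transcription factor of the IRE1 branch, had 10.18, 10.18 and 10.19 in FAM60A knockdown cells against 10.72, 10.66 and 11.11 in controls, and 9.45, 9.41 and 9.43 in SDS3 knockdown cells against 9.88, 9.76 and 9.84 in controls. Knockdown arrays were below all controls in both. XBP1 fell by 0.64 (SE 0.10; 64.1% of control) in FAM60A knockdown and fell by 0.40 (SE 0.052; 76.0% of control) in SDS3 knockdown, and the difference of 0.24 (SE 0.12) between the responses received no call. A dimmer XBP1 probe set was called in neither, and with the mean of both sets the changes were -0.33 and -0.17, still called. ERN1, the IRE1 sensor, fell by 0.30 (SE 0.093) after FAM60A knockdown although its groups overlapped, a call lost without any of 4 arrays (changes of -0.29 to -0.23), and had -0.15 (SE 0.087) after SDS3 knockdown. A second ERN1 set was called lower at -0.64 after FAM60A knockdown.

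The other sensors changed by call in SDS3 knockdown. EIF2AK3 (PERK) fell by 0.43 (SE 0.054) there and had -0.037 (SE 0.069) after FAM60A knockdown, and the difference of -0.40 (SE 0.089) was called. A second, dim EIF2AK3 set had -0.034 after SDS3 knockdown with no call, and with the mean of both sets the SDS3 change was -0.23, still called, and the difference -0.24, not called. ATF6 fell by 0.33 (SE 0.065) after SDS3 knockdown and had -0.089 (SE 0.053) after FAM60A knockdown. Its difference of -0.24 (SE 0.081) was called at a limma adjusted p of 0.0412 and lost that call without any of 8 of the 12 arrays (-0.25 to -0.19). A second ATF6 probe set was called higher after FAM60A knockdown, at 0.26, and lower after SDS3 knockdown, at -0.35. The difference was called on that set (-0.61), on a dimmer set (-0.55) and with the mean of the sets (-0.36). On the dimmest set it was -0.051 with no call.

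ATF4, the transcription factor translated when PERK and related kinases act, was called in opposite directions. It had 13.25, 13.12 and 13.15 in FAM60A knockdown cells against 13.36, 13.37 and 13.37 in controls, and 12.79, 12.82 and 12.86 in SDS3 knockdown cells against 12.65, 12.71 and 12.68 in controls. Neither pair of groups overlapped, but the changes were small, -0.20 (SE 0.057) and 0.15 (SE 0.049), with a difference of 0.35 (SE 0.070). The SDS3 call, at a limma adjusted p of 0.0465, was lost when any of the 6 arrays was left out (0.13 to 0.16) and its value was -0.18 under spike-in scaling, while the FAM60A call was lost without FAM60A knockdown replicate 2 or 3 (-0.19 to -0.17). DDIT3 (CHOP), the pro-apoptotic factor downstream of ATF4, had 9.35, 9.42 and 9.24 in FAM60A knockdown cells against 9.53, 9.80 and 9.44 in controls, and 8.91, 9.05 and 9.14 in SDS3 knockdown cells against 9.06, 8.999 and 8.93 in controls. The first pair of groups lay apart by less than 0.1 and the second overlapped. DDIT3 had a called change of -0.25 (SE 0.090) after FAM60A knockdown, just inside the threshold (limma adjusted p = 0.0486) and lost without any of 5 arrays (-0.29 to -0.15), and 0.037 (SE 0.070) after SDS3 knockdown.

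The 4 targets of ATF4 and CHOP did not move as a block: 1 rose and 1 fell in each knockdown. ASNS, asparagine synthetase, a target of ATF4 in amino acid shortage, had 10.91, 10.66 and 10.74 in FAM60A knockdown cells against 12.15, 12.003 and 12.09 in controls, and 9.42, 9.39 and 9.49 in SDS3 knockdown cells against 9.96, 9.99 and 9.92 in controls. Knockdown arrays lay below all controls in both experiments, by more than 1 in the FAM60A experiment. ASNS fell by 1.31 (SE 0.074; 40.2% of control) after FAM60A knockdown and fell by 0.52 (SE 0.053; 69.7% of control) after SDS3 knockdown, and the difference of 0.79 (SE 0.093) was called. The ASNS values rest on a shared-sequence probe set alone, since the other set did not pass the filter; the mean of both sets gave -0.66 and -0.26, still called. TRIB3, a pseudokinase that restrains ATF4 and CHOP activity, rose by 0.42 (SE 0.052) after FAM60A knockdown and by 0.27 (SE 0.051) after SDS3 knockdown, where it had -0.052 under spike-in scaling (0.31 and no call in FAM60A knockdown). A dimmer TRIB3 set was called higher after FAM60A knockdown, at 0.43, but had 0.096 with no call after SDS3 knockdown. The difference was called on that set (-0.33) and with the mean of both sets (-0.24), but not on the brightest (-0.14). CHAC1, a glutathione-degrading enzyme, and PPP1R15A (GADD34), which directs the phosphatase that undoes the PERK signal, received no call: their changes were -0.0075 and -0.13 after FAM60A knockdown and 0.035 and -0.036 after SDS3 knockdown. The other PPP1R15A set was called lower after FAM60A knockdown, at -0.21, as was the mean of both sets (-0.17).

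SEC61B, a subunit of the translocon, fell by 0.19 (SE 0.057) after FAM60A knockdown, a call lost without FAM60A control replicate 2 or FAM60A knockdown replicate 2 or 3 (-0.20 to -0.15), and had -0.13 (SE 0.053) after SDS3 knockdown. SEC24D, a cargo-binding coat protein of the vesicles that leave the ER, had 6.97, 7.04 and 7.12 in SDS3 knockdown cells against 7.54, 7.69 and 7.73 in controls, all below. In FAM60A knockdown cells it had 8.69, 8.53 and 8.33 against 8.73, 8.40 and 9.05 in controls, which overlapped. SEC24D fell by 0.61 (SE 0.068; 65.4% of control) after SDS3 knockdown and had -0.21 (SE 0.14) after FAM60A knockdown. A dimmer SEC24D set was called higher after FAM60A knockdown, at 0.42, and lower after SDS3 knockdown, at -0.30. The mean of all 3 SEC24D sets, including a dim set that did not pass the filter, gave 0.12 (no call) and -0.34 (called).

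Set side by side, 4 genes were called higher in both knockdowns (HSP90B1, HYOU1, ERO1A and TRIB3; 9.33% of all tested genes), 3 lower in both (EDEM1, XBP1 and ASNS; 8.76%), 2 in opposite directions (KDELR3 and ATF4) and 10 in neither (49.3%). The changes of the 10 genes called in neither ran from -0.14 to 0.076 in FAM60A knockdown and from -0.14 to 0.29 in SDS3 knockdown. Across the 36 genes, which are not independent samples, Pearson's r between the changes was 0.33, and 0.57 for the other 35 when KDELR3 was left out, beside 0.56 over all tested genes. The size of the change had a median of 0.18 in FAM60A knockdown and 0.20 in SDS3 knockdown, beside 0.13 in each over all tested genes.

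The difference between the responses (SDS3 minus FAM60A) was called for 9 of the 36 genes, 4 higher and 5 lower, beside 25.3% of all tested genes (9.99% higher and 15.3% lower). KDELR3 (-1.51), CANX (-0.76) and ASNS (0.79) were the only ones called with a difference of 0.5 or more in size, which 8.48% of all tested genes had. DNAJB9 had a called difference of 0.41 (SE 0.090) and DERL3 of 0.44 (SE 0.086), while DERL2 had -0.38 (SE 0.093). The DERL3 difference lost its call with a set without shared sequence (0.039), with the mean of its sets (0.16) and under spike-in (0.22) or hybridisation control scaling (0.30), and that of DNAJB9 under spike-in (0.19) or hybridisation control scaling (0.27). SEL1L, at -0.27 (SE 0.096), lay just outside the threshold (limma adjusted p = 0.0555). Of the 27 genes without a called difference, a lack of call does not show equal responses: SEC24D, for example, had -0.40 (SE 0.18), and -0.46 with a call when its sets were averaged. Under spike-in scaling 1 difference was called higher and 5 lower among the 36 genes, beside 1.03% higher and 12.6% lower among all tested genes.

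**Figure D4:**
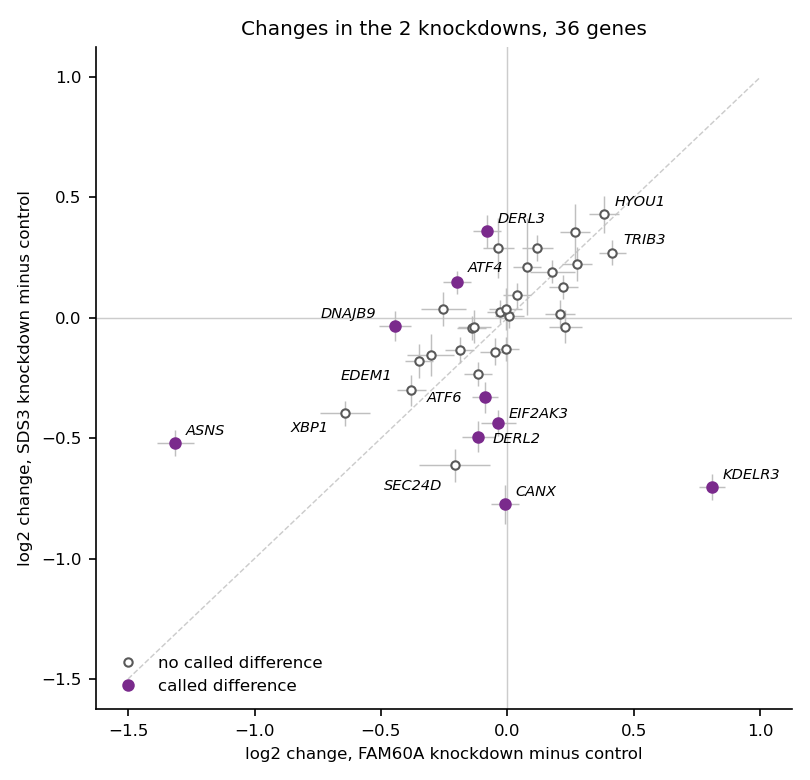
Log2 change in FAM60A knockdown (x axis) against that in SDS3 knockdown (y axis) for the 36 genes, each against its own controls; filled points have a called difference between the responses, bars are standard errors and the dashed line marks equal changes. KDELR3 stands alone at the lower right (0.81 and -0.70), CANX at -0.010 and -0.77, and ASNS at the far left (-1.31 and -0.52); spike-in scaling shifts all points by -0.10 on the x axis and -0.32 on the y axis.

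Further genes of the same machinery, in 8 lists chosen by function, were counted in the same fits. The counts and medians below stand beside 19.2% higher and 17.6% lower calls among all tested genes after FAM60A knockdown, 15.8% and 18.8% after SDS3 knockdown, and medians of -0.023 and 0.0064. No test of a list was made. Of 41 other ATF4 and CHOP targets, 6 rose and 20 fell after FAM60A knockdown and 7 rose and 14 fell after SDS3 knockdown, with median log2 changes of -0.16 and -0.11. Among 22 other stress sensors and translation initiation factors, 5 rose and 8 fell after FAM60A knockdown and 3 rose and 11 fell after SDS3 knockdown, with medians of -0.064 and -0.16. The cytosolic and mitochondrial chaperones, which lie outside the ER, had 3 of 21 higher and 12 lower after FAM60A knockdown and 3 higher and 7 lower after SDS3 knockdown, with medians of -0.22 and -0.12. Among the targets VLDLR, a lipoprotein receptor, rose by 1.00 (SE 0.077) after FAM60A knockdown and by 0.70 (SE 0.060) after SDS3 knockdown. SESN2, a stress-induced regulator of mTORC1, fell by 0.70 (SE 0.066) after FAM60A knockdown. After SDS3 knockdown CBS, which makes cystathionine, rose by 0.73 (SE 0.063) and GDF15, a stress-induced cytokine, fell by 1.41 (SE 0.12), though with a change of -0.33 on a probe set without shared sequence. MBTPS1, the protease that cuts ATF6 in the Golgi, rose by 0.64 (SE 0.065) in FAM60A knockdown and 0.56 (SE 0.062) in SDS3 knockdown. Its SDS3 call was lost under spike-in scaling, at 0.23. EIF2S1, the initiation factor subunit that PERK phosphorylates, fell by 0.40 (SE 0.055) after FAM60A knockdown and by 0.26 (SE 0.057) after SDS3 knockdown. On a set without shared sequence EIF2S1 had 0.025 and -0.11. EIF2AK1, the haem-regulated kinase of that subunit, fell by 0.60 (SE 0.058) after SDS3 knockdown. It also fell by 0.17 (SE 0.062) after FAM60A knockdown, a call lost under spike-in scaling. CLPP, a mitochondrial protease, rose by 0.43 and 0.57, and both calls were lost under spike-in scaling (0.33 and 0.25). HSPB8, a small cytosolic chaperone, had -0.83 and -1.29 on its brightest set, called lower in both, and had -0.073 and 0.055 on a set without shared sequence.

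The remaining 5 lists belong to the ER and its transport. Of 19 translocon and signal peptidase genes, 5 rose and 5 fell after FAM60A knockdown and 3 rose and 6 fell after SDS3 knockdown (medians -0.036 and -0.12). Of 16 genes of N-glycan transfer and the calnexin cycle, 5 rose and 4 fell, and then 2 rose and 4 fell (0.074 and -0.012). UGGT1, the glucosyltransferase that returns misfolded glycoproteins to calnexin, fell by 0.83 (SE 0.059) after SDS3 knockdown, in which CANX fell too. It also fell by 0.18 (SE 0.059) after FAM60A knockdown, a call lost under spike-in scaling. MOGS, the glucosidase that starts glycan trimming, rose by 1.04 (SE 0.070) in FAM60A knockdown and 0.53 (SE 0.054) in SDS3 knockdown. The SDS3 call on MOGS was lost under spike-in scaling, at 0.21. MAGT1, a subunit of the oligosaccharyltransferase, fell by 0.28 (SE 0.059) after FAM60A knockdown. SPCS2, of the signal peptidase, rose by 0.96 and 1.02 but had 0.050 and -0.020 on a set without shared sequence. SRPRB, a subunit of the signal recognition particle receptor, fell by 0.94 (SE 0.062) after FAM60A knockdown (-0.56 on such a set). SSR1, of the translocon-associated complex, fell by 0.49 (SE 0.072) after SDS3 knockdown (-0.51 on such a set). It also fell by 0.30 (SE 0.080) after FAM60A knockdown (0.027 on such a set).

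Of 28 other ER folding enzymes and co-chaperones, 7 rose and 4 fell after FAM60A knockdown and 7 rose and 8 fell after SDS3 knockdown (medians 0.044 and -0.023). AGR2, a disulphide isomerase of secretory epithelia, fell by 1.83 (SE 0.086) in FAM60A knockdown and fell by 3.25 (SE 0.11) in SDS3 knockdown. TMX3, a membrane-bound isomerase, rose by 0.86 (SE 0.070) and 0.44 (SE 0.076), and its SDS3 call was lost under spike-in scaling, at 0.11. Of 23 other degradation genes, 5 rose and 3 fell, and then 3 rose and 2 fell (0.012 and -0.042). HERPUD2, the paralogue of HERPUD1, rose by 0.88 (SE 0.074) in FAM60A knockdown and 1.75 (SE 0.064) in SDS3 knockdown, whereas HERPUD1 received no call on its brightest set. ERLIN2, a lipid raft protein of the ER, fell by 0.38 (SE 0.086) after FAM60A knockdown and by 0.24 (SE 0.072) after SDS3 knockdown. EDEM2, a relative of EDEM1, fell by 0.65 (SE 0.059) after SDS3 knockdown. Of 37 coat and cargo receptor genes, 13 rose and 7 fell after FAM60A knockdown and 6 rose and 12 fell after SDS3 knockdown (-0.00061 and -0.073). BET1, a SNARE of ER to Golgi transport, rose by 1.23 (SE 0.058) and 1.35 (SE 0.053), and TMED2, a cargo receptor, fell by 1.01 (SE 0.070) after FAM60A knockdown. MIA2, an export factor for large cargo, fell by 0.29 (SE 0.066) after FAM60A knockdown and by 0.54 (SE 0.081) after SDS3 knockdown. On a set without shared sequence MIA2 had -0.055 and 0.088. Under spike-in scaling every list had more genes called lower than higher after SDS3 knockdown. The lower calls ran from 9 of 16 for the calnexin cycle list to 16 of 22 for the sensors and initiation factors. With that scaling 49.0% of all tested genes were called lower and 2.67% higher, so the lists moved with the shift of all genes.

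**Figure D5:**
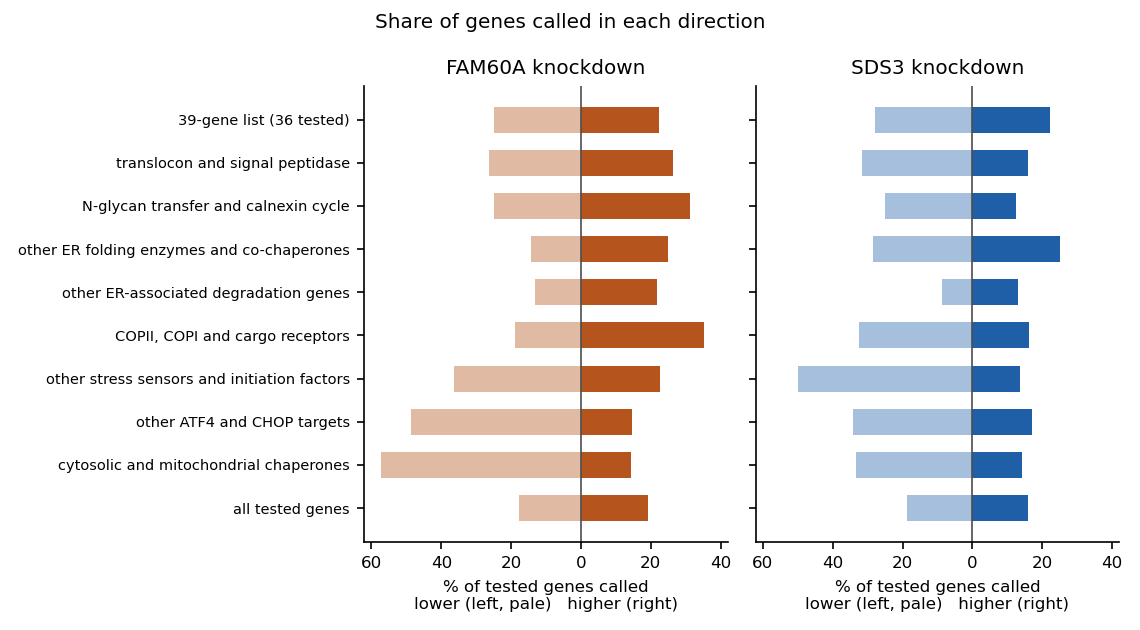
Share of tested genes called lower (pale, left of 0) and higher (dark, right of 0), in percent, for the 36 genes, 8 lists of related genes and all tested genes, with FAM60A knockdown on the left and SDS3 knockdown on the right. The 41 ATF4 and CHOP targets and the 21 cytosolic and mitochondrial chaperones extend furthest to the lower side after FAM60A knockdown and the 22 sensors and initiation factors after SDS3 knockdown. Spike-in scaling moves all lists, and all tested genes with them, toward the lower side in SDS3 knockdown.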

How the data were processed

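RNA from 12 A549 samples (1 ug of total RNA each, 3 per group, grouped by their titles) was labelled with biotin and hybridised to a 1-colour Affymetrix array of 54675 probe sets. The deposited values are probe set intensity on a linear scale, made by the authors with RMA, per the submitters' processing notes; version, settings and whether all arrays were normalized together are not given in the sources used here. RMA removes changes shared by most transcripts. The planned design took them for log2 values, so log2 was taken here, with no other change.

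The platform annotation named the probe sets (41097 with 1 gene symbol, 1801 with several, 11777 with none listed), and symbols were updated through the gene list of RefSeq GRCh38.p14, which held 41043 of them. Each gene was its brightest probe set among those of that gene alone, and 18621 of 19775 genes with a log2 of 5 or more on at least 3 of 12 arrays were tested. Each knockdown was fitted with its own controls (6 arrays) and their difference on all 12 arrays, using lmFit and eBayes (limma 3.58.1, R 4.3.3; Benjamini-Hochberg over all tested genes; threshold 0.05); tables were read with data.table, version 1.17.8. The other probe sets come from a fit of all probe sets, whose adjustment differs. The number of arrays limits the precision.

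The genes, the 8 lists of related genes and the tests were chosen with earlier results of these data known. All 39 genes are named; array values are given for the KDEL receptors, for genes called with a log2 change of at least 0.5 or in opposite directions, and for those next to the threshold; from each other list, the called gene with the largest rise and fall per knockdown. Promoter windows came from RefSeq (first listed start of each gene). The script was tested on simulated data. The proteins' C-terminal signals were not analysed here.

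The alternatives were no filter, the mean of a gene's probe sets, shared-sequence probe sets (suffix _s_at or _x_at) dropped where a gene had another set, median centring, quantile normalization, scaling to the Bacillus spike-ins, 1 fit of 12 arrays, eBayes with trend and robust, a replicate block and leaving out each array; scaling to the hybridisation controls was added after seeing the data.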

Additional observations from a re-analysis of the deposited data

Results flagged for a closer look

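For 9 genes the response to SDS3 knockdown differed from that to FAM60A knockdown by limma's test of the difference on all 12 arrays, an interaction of knockdown and experiment. The differences (SDS3 response minus FAM60A response, log2) were -1.51 for KDELR3, -0.76 for CANX, -0.38 for DERL2, -0.24 for ATF6, -0.40 for EIF2AK3, 0.41 for DNAJB9, 0.44 for DERL3, 0.35 for ATF4 and 0.79 for ASNS. Experiment and knockdown cannot be told apart in this difference, since each knockdown was run in an experiment of its own, with other controls and another range of signal. The genes were chosen with these differences known. The call was lost for DERL3 in 4 alternatives (0.039 to 0.30), for DNAJB9 (0.19 and 0.27) and ATF4 (0.12 and 0.21) under both kinds of control scaling, for EIF2AK3 with the mean of its sets (-0.24) and for ATF6 in 12 of 21. Groups of 3 arrays are too small for a test of single outlying arrays, so none was run.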

How the results depend on the processing

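The calls on KDELR3 and ASNS (both knockdowns and the difference), CANX and DERL2 (SDS3 knockdown and the difference), XBP1 and EDEM1 (both knockdowns), DNAJB9 (FAM60A knockdown), and EIF2AK3, ATF6 and SEC24D (SDS3 knockdown) were kept in all alternatives run, except that ASNS could not be fitted without its shared-sequence set, since its other set did not pass the filter. Scaling to the spike-ins moved most: 1 gene was called higher after FAM60A knockdown (8 in the reported fit), 0 higher and 19 lower after SDS3 knockdown (8 and 10), and 1 higher in the difference (4). With that scaling 7.24% of all tested genes were called higher after FAM60A knockdown. After SDS3 knockdown 2.67% were higher and 49.0% lower, and 1.03% were higher in the difference. Of the genes called higher after SDS3 knockdown in the reported fit, MANF (-0.033), PDIA4 (-0.13), ERO1A (-0.097), ATF4 (-0.18) and TRIB3 (-0.052) then turned. All SDS3 changes above 0 without a call turned too, among them PDIA3 (-0.031), SDF2L1 (-0.11), CRELD2 (-0.20) and CALR (-0.23). They turned because the 24 spike-in probe sets were 0.32 higher in SDS3 knockdown than in its controls (exact permutation p = 0.1, the smallest that 3 against 3 allows). In the FAM60A experiment these sets were 0.10 higher in the knockdown (exact permutation p = 0.5). Scaling to the 18 hybridisation controls, added after seeing the data, gave 3 higher after SDS3 knockdown and 1 higher in the difference. With shared-sequence probe sets dropped where a gene had another, 5 were higher after SDS3 knockdown (HSP90B1 and HYOU1 still on shared-sequence sets, having no others), and DERL1 turned to 0.098. Genes called lower in the difference numbered 8 with the mean of a gene's probe sets, 8 with quantile normalization and 8 with eBayes with trend and robust (5 reported); the cause was not tested.

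Leaving out 1 array gave 6 to 8 higher and 5 to 9 lower after FAM60A knockdown, the 5 without FAM60A knockdown replicate 2; 5 to 6 higher and 10 to 11 lower after SDS3 knockdown, the 5 without SDS3 control replicate 2 or any of SDS3 knockdown replicates 1, 2 and 3; and 4 to 5 higher and 4 to 6 lower in the difference. Of 17 calls after FAM60A knockdown 11 held without any 1 array, as did 14 of 18 after SDS3 knockdown and 8 of 9 in the difference. Replicate numbers did not pair the samples (correlations of same-numbered deviations of -0.12 to -0.072 in the FAM60A and -0.078 to 0.034 in the SDS3 experiment). With a replicate block 8 were higher and 9 lower after FAM60A knockdown, 6 and 10 after SDS3 knockdown, and 4 and 4 in the difference. Where probe sets are dim, the signal over background limits what can be called.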

Other observations

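The 3 probe sets for 18S ribosomal RNA had a mean log2 signal 0.28 higher in FAM60A knockdown and 0.53 higher in SDS3 knockdown than in controls (exact permutation p = 0.1 each, two-sided, the smallest that 3 against 3 allows). The 3' minus 5' signal of ACTB, a sign of RNA integrity, differed by -0.094 in FAM60A knockdown (exact permutation p = 0.1) and by -0.013 in SDS3 knockdown (exact permutation p = 0.7). That of GAPDH differed by only 0.00072 in FAM60A knockdown and by 0.0048 in SDS3 knockdown. Their part in the changes above was not tested. With all listed starts of each gene in place of the first, ERSE also stood in a window of PDIA6, which makes 7 of the genes.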
